A study of Mus musculus with 16 samples.

Results

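H3K9me3 peaks of skin cells other than the hair follicle stem cells (HFSCs) were compared between early anagen and late catagen. The compared regions were the 17873 peaks of non-HFSCs in early anagen (nEA) and the 18236 peaks of non-HFSCs in late catagen (nLC), 36109 of the 219698 peaks in the 12 lists of the series. Peaks that overlapped one of the opposite stage by 1 bp or more were called kept. An nEA peak without such an overlap was called lost, and an nLC peak without one was called gained. The study mapped H3K4me3, H3K9me3 and H3K27me3 by ChIP-seq in HFSCs and non-HFSCs at both stages, to ask how the marks differ between the stage of stem cell self-renewal and that of quiescence.

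The cells of both groups were sorted from the skin of wild-type CD1 x FVB mice, labelled male, as CD34- / α6-integrin+ cells, and per the study they were mostly epidermis and lower outer root sheath. The study's methods say that both sexes were used in most of its analyses. The nEA mice were aged PD22-25 and the nLC mice PD38-44, PD being the postnatal day, so hair cycle stage and age cannot be told apart. Cells of several mice were pooled, chromatin was cut with MNase, and H3K9me3 was precipitated with antibodies that the labels give as Millipore and Abcam and the study's methods as either one. Which antibody served which stage is not known from these sources, so its part in the differences was not tested. The reads of replicate experiments were pooled before peaks were called against IgG, so each side is 1 list. With 1 list per side no difference had a replicate check, and no test between the stages was possible. All intervals below are 95% Wilson intervals in parentheses and cover counting error only.

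H3K9me3 is written by methyltransferases of the Suv39h and Setdb1 families, removed by Kdm4 demethylases, and bound by the HP1 proteins. It is known as the mark of constitutive heterochromatin at pericentromeric satellite DNA, of silenced transposons and of the clustered zinc finger genes. H3K4me3 marks the starts of active and poised genes, most of them in CpG islands, and H3K27me3 is the Polycomb mark of silent developmental genes.

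Each peak carries a score, 10 times the negative log10 of the peak caller's p-value, which depends on depth and background and ranks peaks within a list only. The exact value 3100 recurred at many genes and in several lists, so equal scores of 3100 need not stand for equal signal. Both lists began at a score of 40, and the number of reads behind them is not known from the lists. The sorted population was checked by H3K4me3 peaks within 3000 bp of the annotated start of marker genes. Peaks lay at 4 of 6 basal keratinocyte genes at both stages (Krt5, Krt14, Itgb4 and Col17a1) and at 3 of 4 suprabasal genes at both stages. The other basal genes, Trp63 and Itga6, had none in that window at either stage, although Itga6 encodes the α6-integrin used in the sort. Starts of other transcripts of these genes were not looked at here. The bulge list had peaks at 5 of 6 genes in nEA and 4 of 6 in nLC. Cd34 had one at neither stage, Lhx2 in nEA only, and Krt15, Lgr5, Sox9 and Nfatc1 at both. The 4 leukocyte and 2 endothelial markers had no peak, whereas melanocyte markers had a peak at 3 of 4 genes in nEA and 2 of 4 in nLC, and fibroblast markers at 3 of 3 and 2 of 3. The part of these other cells in the H3K9me3 lists was not tested.

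Sequences that stand for the main kinds of site are given first, from the mm9 (NCBIM37) genome. The first 3 are the 200 bases upstream of the starts of Efnb2 (chr8:8661240-8661439, minus strand), Pcgf1 (chr6:83028180-83028379, plus strand) and Cep170 (chr1:178744199-178744398, minus strand). All 3 lie inside gained peaks and were chosen after their values were seen, as the genes with the highest gained scores among those with H3K4me3 and a full gene name whose peak covers all 200 bases, free of annotated UTRs. Efnb2 encodes a transmembrane ligand of Eph receptors, Pcgf1 a subunit of a Polycomb complex and Cep170 a centrosomal protein. CpG dinucleotides are in capitals, 24 in Efnb2, 14 in Pcgf1 and 15 in Cep170.
Efnb2: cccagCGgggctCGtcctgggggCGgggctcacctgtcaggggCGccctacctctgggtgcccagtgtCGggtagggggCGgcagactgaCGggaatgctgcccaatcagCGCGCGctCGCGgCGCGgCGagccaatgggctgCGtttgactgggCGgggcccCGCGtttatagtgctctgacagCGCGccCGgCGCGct
Pcgf1: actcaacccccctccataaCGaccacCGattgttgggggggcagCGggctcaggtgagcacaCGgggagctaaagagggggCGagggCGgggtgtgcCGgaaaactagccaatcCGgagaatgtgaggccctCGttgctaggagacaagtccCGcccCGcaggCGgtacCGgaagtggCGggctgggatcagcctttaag
Cep170: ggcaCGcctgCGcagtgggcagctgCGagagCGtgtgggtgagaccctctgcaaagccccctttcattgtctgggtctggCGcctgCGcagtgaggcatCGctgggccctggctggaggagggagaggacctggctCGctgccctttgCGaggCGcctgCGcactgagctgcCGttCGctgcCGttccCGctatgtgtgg

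The fourth sequence is the middle of the highest-scoring gained peak, 234 bases at chr2:98506825-98507058 on the plus strand, with 8 CpGs in capitals. Its length is that of the repeat unit of mouse major satellite, the DNA of pericentromeric heterochromatin. The next is the middle 200 bases of the highest-scoring lost peak, chr17:22280459-22280658, plus strand, which lies between genes in a zinc finger gene cluster and holds 2 CpGs.
Highest gained peak: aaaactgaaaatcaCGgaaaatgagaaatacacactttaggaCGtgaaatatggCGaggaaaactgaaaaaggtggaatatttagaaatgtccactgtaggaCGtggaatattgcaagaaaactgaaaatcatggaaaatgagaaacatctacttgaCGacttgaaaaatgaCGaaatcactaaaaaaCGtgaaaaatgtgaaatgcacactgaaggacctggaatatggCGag
Highest lost peak: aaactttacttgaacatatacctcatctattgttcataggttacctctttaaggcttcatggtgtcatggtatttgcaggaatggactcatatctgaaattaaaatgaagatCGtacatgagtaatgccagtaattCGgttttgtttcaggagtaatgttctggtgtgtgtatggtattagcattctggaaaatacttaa

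The last is a coding stretch of Zfp933, a C2H2 zinc finger gene, in one of the 8 highest-scoring kept nEA peaks, chr4:147200257-147200456, minus strand. It was chosen after its values were seen, as the stretch with the most zinc finger linkers there. Capitals mark its 3 linkers, the bases ACNGGNGANAANCCNTN that join one C2H2 finger to the next.
Zfp933: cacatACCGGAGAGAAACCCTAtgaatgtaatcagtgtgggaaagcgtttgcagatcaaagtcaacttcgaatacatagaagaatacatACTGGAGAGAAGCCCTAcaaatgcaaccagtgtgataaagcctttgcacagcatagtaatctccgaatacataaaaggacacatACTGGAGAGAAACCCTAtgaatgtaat

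Most H3K9me3 peaks of non-HFSCs were found at 1 stage only, although both lists were of nearly equal size. The ratio of the number of nLC to nEA peaks was 1.02 (0.999 to 1.04). Of the nEA peaks, 3980 were kept, 22.3% (21.7 to 22.9%), and 13893 were lost (77.7% of the 17873 peaks). Of the nLC peaks, 4812 were kept, 26.4% (25.8 to 27%), and 13424 were gained (73.6% of the 18236 peaks). For comparison, the non-HFSC lists of the same stages kept 72.1% (71.6 to 72.7%) of their nEA peaks for H3K4me3 and 45.5% (44.8 to 46.3%) for H3K27me3, and the HFSC lists kept 1.79% (1.67 to 1.92%) of the early anagen peaks for H3K9me3. The late catagen HFSC list held only 1414 H3K9me3 peaks against 42277 in early anagen, which limits the share that could be kept. The 1.79% is therefore not directly comparable with the 22.3% of the non-HFSC lists of nearly equal size. From the late catagen side, 57.4% of the HFSC peaks had no early anagen overlap, against 73.6% of nLC peaks. These shares too are not directly comparable. The early anagen list held 42277 peaks in HFSCs and 17873 in non-HFSCs, and the late catagen peaks had a median width of 1629 bp in HFSCs and 578 bp in non-HFSCs. These comparisons have no replicate check either.

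Lost and gained peaks were seldom shifted copies of each other. Only 5.16% (4.80 to 5.55%) of the gained peaks had an nEA peak within 1000 bp, and 14.2% (13.7 to 14.8%) had one within 5000 bp. Of the lost peaks, 6.37% (5.98 to 6.79%) had an nLC peak within 1000 bp and 18.8% (18.2 to 19.5%) within 5000 bp.

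The nLC peaks were narrower than the nEA peaks at kept and at unshared sites alike. The median width was 1007 bp for lost peaks (quartiles 816 and 1321 bp) and 568 bp for gained peaks (508 and 655 bp). Where a site was kept, the median was 1474.5 bp on the nEA side and 640 bp on the nLC side. Of the gained peaks, 96.9% were narrower than 1000 bp, against 49.0% of the lost peaks. The covered length was therefore 24 Mb in nEA and 11.7 Mb in nLC. At kept sites the nLC peaks covered a median of 43.8% of the nEA peak, and 65.7% of them lay wholly inside one. Breaking up of wide nEA peaks was a minority pattern, since 588 of the 3980 kept nEA peaks (14.8%) held 2 or more nLC peaks, with a maximum of 11.

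**Figure D1:**
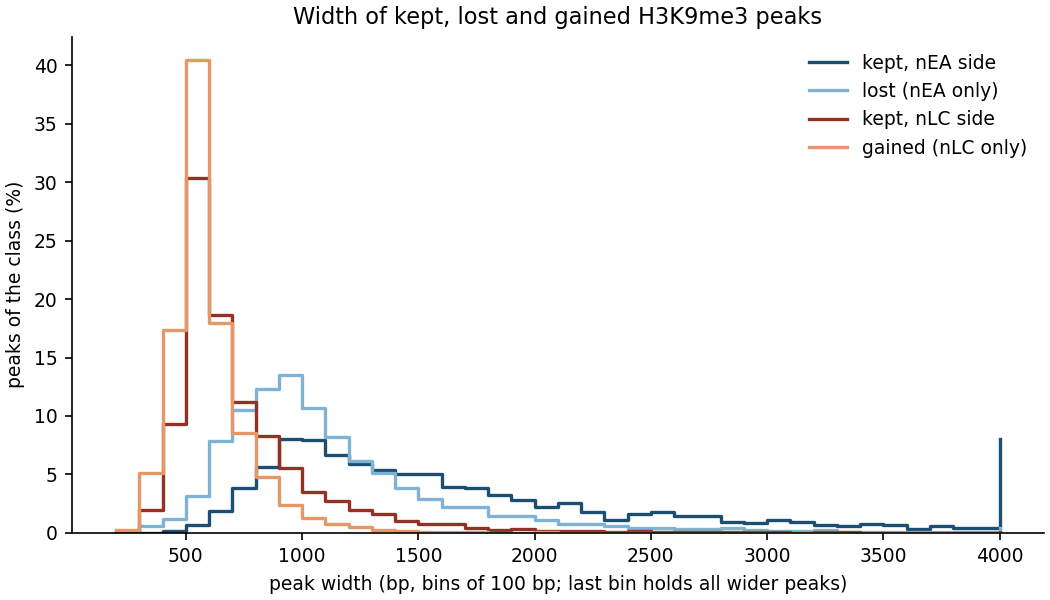
Width of H3K9me3 peaks in bins of 100 bp (x axis, bp) against the percent of peaks of each class (y axis), for kept and lost nEA peaks and kept and gained nLC peaks; the last bin holds all wider peaks. Gained peaks gather around their median of 568 bp, and the kept nEA peaks, with a median of 1474.5 bp, reach farthest to the right.

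High-scoring peaks were kept more often. Among nEA peaks, 9.84% (8.55 to 11.3%) of the 10% with the lowest scores were kept and 60% (57.7 to 62.2%) of the 10% with the highest. Among nLC peaks the shares were 18.6% (16.9 to 20.5%) and 57.9% (55.6 to 60.2%). Width moved with score here, and 5.98% (4.98 to 7.18%) of the narrowest 10% of nEA peaks were kept against 58.8% (56.5 to 61.1%) of the widest 10%. The median score was 57.7 for lost peaks and 96.2 for kept nEA peaks, and 48.5 for gained and 54.9 for kept nLC peaks. A score of 100 or more was reached by 2275 lost peaks and by 249 gained peaks (1.85%), and 56.0% of the gained peaks were under 50. Most of what was gained thus lay close to the calling threshold. Whether a lost or gained site lies just under the threshold in the other list cannot be seen in the lists.

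The gained peaks lay in other parts of the genome than the lost peaks. By its middle, a peak was assigned to a promoter, from 1000 bp before any start of a protein-coding transcript to 100 bp after it, or else to a UTR, another exon, an intron or the sequence between genes. Promoters held 901 gained peaks, 6.72% (6.31 to 7.16%), and 64 lost peaks, 0.469% (0.367 to 0.598%), where 1.36% of the placed genome is promoter. The 5′ UTR held 1.01% (0.852 to 1.19%) of gained and 0.0146% of lost peaks (2 peaks) against 0.125% of the genome. In contrast, 70.7% (69.9 to 71.4%) of lost and 53.7% (52.9 to 54.6%) of gained peaks lay between genes, which make up 60.5% of the genome. Introns held 35.5% of the gained peaks, near their 35.7% of the genome, and 27.7% of the lost peaks. Kept peaks had few promoters, 0.866% (0.621 to 1.21%) on the nEA side, but 2.57% (2.12 to 3.12%) in other exons, against 0.593% (0.478 to 0.737%) of lost peaks and 1.25% of the genome.

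**Figure D2:**
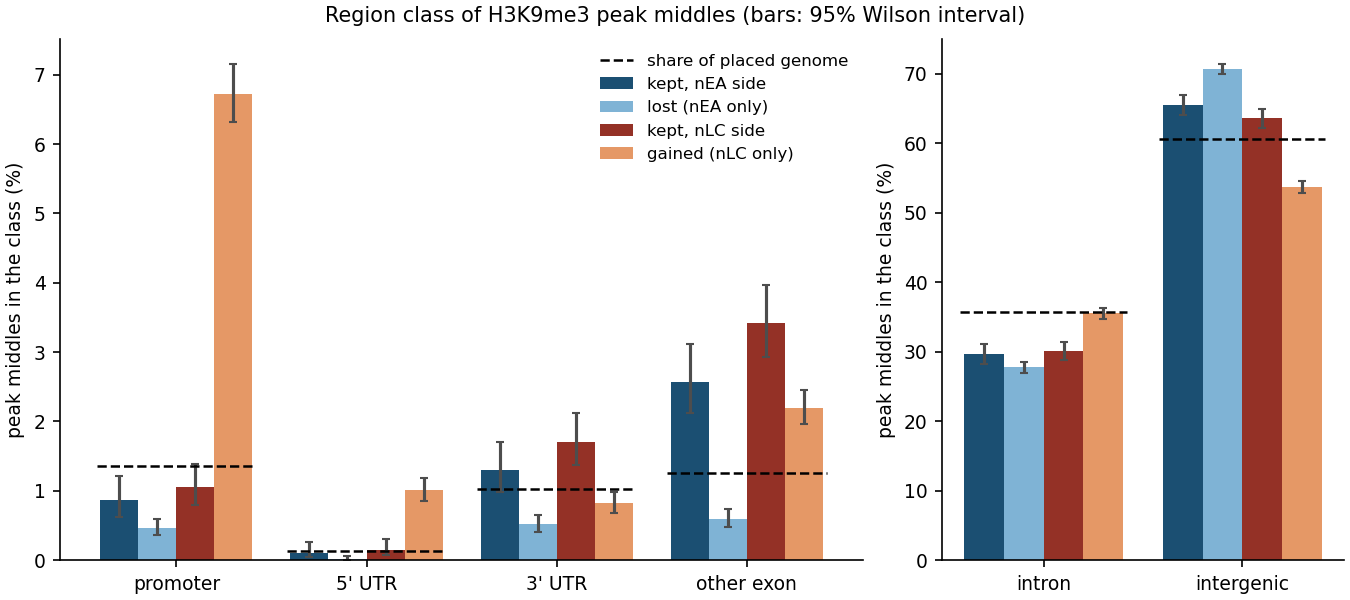
Percent of peak middles in each region class (y axes) for the 4 peak classes, with 95% Wilson intervals as error bars and the share of the placed genome as a dashed line; the 2 panels have different scales. Gained peaks stand above the other classes in promoters (6.72%) and in the 5′ UTR, and lost peaks stand highest between genes (70.7%).

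Around gene starts the stages had opposite profiles. Over 22367 protein-coding genes, an nLC peak covered the start itself at 909 genes (4.06%) and an nEA peak at 90 (0.402%). The nLC profile was highest 200 bp downstream, where 1085 genes (4.85%) were covered, and at 5000 bp upstream it was 0.809%. The nEA profile dipped at the start and stood at 1.25% at 5000 bp upstream, above nLC. Of the gained peaks on placed chromosomes, 2164 had their middle within 3000 bp of a gene start, 16.2% (15.5 to 16.8%), against 341 of the lost peaks, 2.50% (2.25 to 2.77%). Within 500 bp the shares were 8.45% (7.99 to 8.93%) and 0.242% (0.172 to 0.339%). Kept peaks lay between, with 3.77% (3.22 to 4.41%) of nEA and 4.15% (3.62 to 4.76%) of nLC peaks within 3000 bp.

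The gained peaks at gene starts lay mostly inside the gene. Of the 2164, 1430 had their middle downstream of the start, 66.1% (64.1 to 68.0%), and the median position was 228.5 bp downstream. The 341 lost peaks there had 39.3% (34.3 to 44.6%) of their middles downstream, and a median position of -892 bp, that is upstream. The gained peaks near and far from gene starts had similar scores, with medians of 49.8 and 48.3. The share near a gene start was 14.6% (13.8 to 15.4%) for gained peaks with a score under 50, 18% (17 to 19%) from 50 to under 100, and 21.8% (17.1 to 27.4%) for the 243 placed gained peaks of 100 or more, so peaks at gene starts were found at every level of score.

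**Figure D3:**
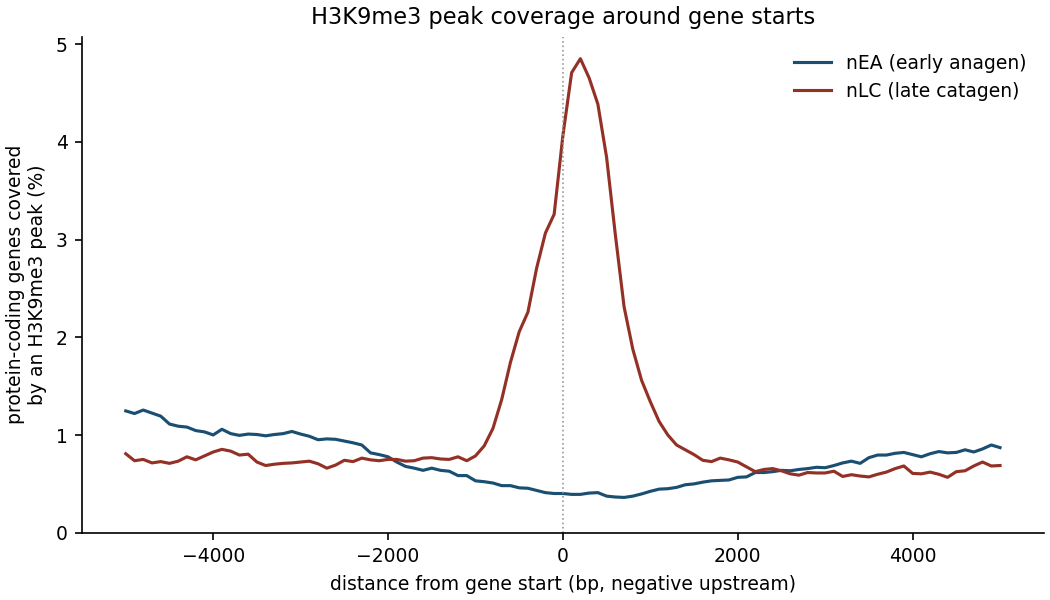
Percent of 22367 protein-coding genes covered by an H3K9me3 peak (y axis) at each distance from the gene start (x axis, bp, negative upstream), in nEA and nLC. The nLC curve peaks at 4.85% at 200 bp downstream, whereas the nEA curve is lowest near the start and lies above nLC toward both edges.

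Counted by gene, a peak within 3000 bp of the start was present at 626 genes in nEA and 2605 in nLC. It was gained at 2361 genes (10.6% of all genes), lost at 382 (1.71%) and kept at 244 (1.09%), which is 39.0% (35.2 to 42.9%) of the genes marked in nEA. A gene was called by what lay in this window alone, so its peak could still overlap one of the other stage outside it. Of the gained genes 2357 held a gained peak in the window, and of the lost genes 364 a lost peak. The count depended on the score. With peaks of 50 or more, 1208 genes gained and 328 lost a peak. With peaks of 100 or more the order turned, and 87 genes gained and 163 lost a peak, 196 genes being marked in nEA and 120 in nLC. With the 2000 highest-scoring peaks of each list, 269 genes gained and 77 lost a peak. This makes the number of peaks equal but not the lowest score. A score of 100 or more was reached by 4190 nEA and 816 nLC peaks, so the nLC peaks used reached below 100 and the nEA peaks did not. A gene gained here can still have an nEA peak outside the 2000. The best nLC peak at a gained gene had a median score of 50.03, and 64 of the 2361 genes reached 100. Anywhere in the gene body, a peak was gained at 3066 genes (13.7%), kept at 1906 (8.52%) and lost at 1082 (4.84%).

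Gained peaks at gene starts coincided with marks of active or poised genes. Of the 2164 gained peaks within 3000 bp of a start, 1504 lay on an nLC H3K4me3 peak, 69.5% (67.5 to 71.4%), 383 on an nLC H3K27me3 peak, 17.7% (16.1 to 19.4%), and 334 on neither, 15.4% (14 to 17%). Farther from gene starts, only 2.04% (1.79 to 2.32%) of the 11235 gained peaks lay on H3K4me3 and 12.6% (12.0 to 13.2%) on H3K27me3. Of the 341 lost peaks near a start, 7.33% (5.01 to 10.6%) lay on nLC H3K4me3. By gene, a peak was gained at 15.7% (15.0 to 16.3%) of the 11410 genes with H3K4me3 alone at the start in nLC, at 15.2% (13.4 to 17.1%) of the 1404 with H3K27me3 alone, at 14.9% (13.1 to 17%) of the 1259 with both, and at 2.09% (1.80 to 2.42%) of the 8294 with neither. The interval of the genes with neither mark lay below the other 3, which overlapped. A peak was kept at 3.70% (2.84 to 4.82%) of the genes with H3K27me3 alone, 2.70% (1.94 to 3.75%) with both marks, 1.02% (0.830 to 1.27%) with neither and 0.640% (0.509 to 0.804%) with H3K4me3 alone. Because H3K4me3 alone was the most common state, it held 75.7% of the gained genes.

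Most of those gained sites were also sites of H3K9me3 in the anagen stem cells. Of the gained peaks within 3000 bp of a start, 1476 lay on an H3K9me3 peak of EA-HFSCs, 68.2% (66.2 to 70.1%), and 0 of 2164 lay on one of LC-HFSCs, with a Wilson upper bound of 0.177%. Gained peaks far from gene starts lay on an EA-HFSC peak in 13.5% (12.8 to 14.1%) and on no peak of any other list in 73.2% (72.4 to 74.1%). Lost peaks lay on an EA-HFSC peak in 12.9% (12.3 to 13.4%), and kept nEA peaks in 34.9% (33.5 to 36.4%). LC-HFSC peaks, only 1414 in all, were met by 17.5% (16.3 to 18.7%) of the kept nEA peaks and 3.57% (3.27 to 3.89%) of the lost ones. Of the 2361 gained genes, 78.7% had H3K9me3 at the start in EA-HFSCs, against 68.9% of the kept and 47.4% of the lost genes and 10120 of all 22367. Over all their members, the housekeeping lists below ranged from 78.0% (cytosolic ribosomal protein genes) to 86.5% (NADH dehydrogenase subunit genes). Replication-dependent histone genes reached 40.3%. Most members of these lists had H3K4me3 in nLC. A share like the 78.7% was thus not particular to gained genes.

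CpG content followed the same split. The ratio of observed to expected CpG, pooled over the peaks, was 0.656 for gained peaks within 3000 bp of a gene start, 0.210 for gained peaks farther away, 0.186 for lost peaks, 0.198 for kept nEA peaks and 0.192 for 1000-bp tiles spread over the genome. Median GC content was 56.3% for gained peaks near starts, 45.1% for the other gained peaks and 42.6% for lost peaks, with 41.5% for the tiles. A peak was called island-like when its CpG ratio was at least 0.6 and its GC content at least 50%, which held for 1171 of the 2164 gained peaks near starts, 54.1% (52.0 to 56.2%), and for 3.23% (1.81 to 5.68%) of the lost peaks near starts. The sequences of Efnb2, Pcgf1 and Cep170 above, rich in CpG, stand beside that of the highest lost peak with its 2 CpGs.

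Ranked by the CpG ratio in the 500 bp to either side of the gene start, the 20% of genes with the least CpG gained a peak in 2.19% (1.80 to 2.66%) and the 20% with the most in 17.6% (16.5 to 18.8%). The next lower 20%, at 17.5% (16.5 to 18.7%), did not differ from the highest beyond counting error. Lost peaks showed no such rise. Their share was 1.99% (1.62 to 2.44%) in the lowest and 1.23% (0.946 to 1.6%) in the highest group, and these intervals did not overlap. CpG content moved together with H3K4me3, and the part of either in the gained peaks was not tested.

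**Figure D4:**
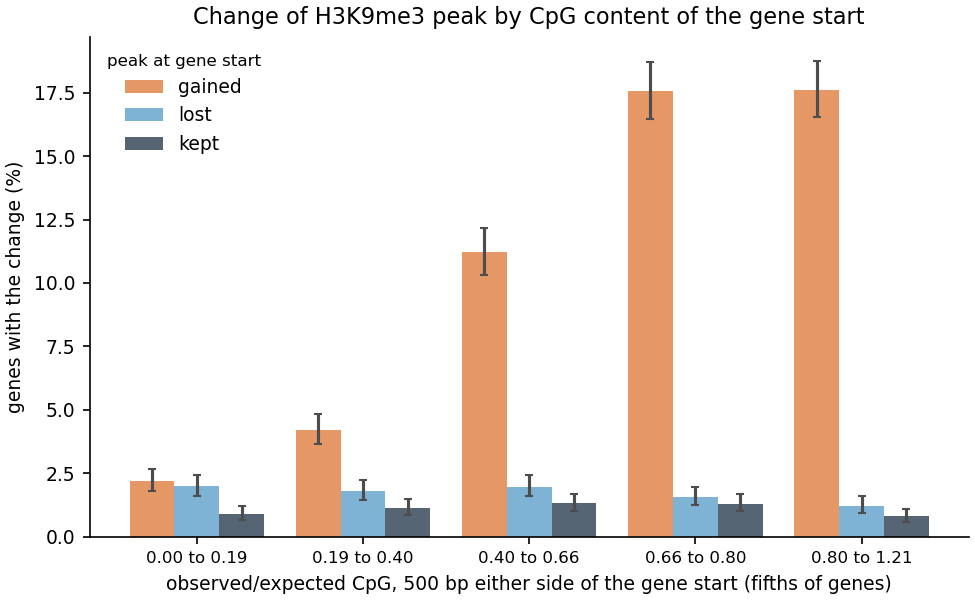
Percent of genes that gained, lost or kept an H3K9me3 peak within 3000 bp of the start (y axis, 95% Wilson intervals as error bars) in 5 equal groups of genes by observed to expected CpG around the start (x axis). The gained bars go from 2.19% in the lowest group to 17.6% in the highest, and the lost and kept bars reach at most 1.99%.

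Among the 15 genes with the highest gained scores, predicted genes led and developmental genes followed. Gm10800 and Gm10801, predicted genes on chromosome 2, had nLC scores of 3100 and 2419, no nEA peak and EA-HFSC scores of 977 and 449. Gm10106, Gm10715 and Gm17535 on chromosome 9 shared a gained peak of 646, and 3110070M22Rik and Gm7120 on chromosome 13 one of 279. Hoxd10, a homeobox gene of limb patterning, had an nLC H3K9me3 score of 165 with a peak of 1359 bp across its start, and an nLC H3K27me3 score of 1215. Foxd2, a forkhead factor, had a score of 187 at a peak 3159 bp downstream of its start by the middle, which overlapped an nEA peak just outside the window, and Dmrta2, a DM-domain factor, had 162 at -1851 bp. Their nLC H3K27me3 peaks both scored 3100. Vwa5b2 (258), Lhfpl2 (220) and Jam3 (144), the last a junction adhesion molecule, also carried H3K27me3. In nEA the H3K27me3 list had a peak at 4 of these 6 genes and none at Hoxd10 and Foxd2. All 6 had H3K9me3 in EA-HFSCs, with scores from 72.1 at Jam3 to 1313 at Hoxd10, and none had an H3K9me3 peak within 3000 bp of the start in nEA or LC-HFSCs.

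Of the 15 genes with the highest gained scores among those with H3K4me3 in nLC, 8 also had H3K27me3 there. Besides those above they include Gm53 (151) in the Hoxb cluster, Hlx (130), a homeobox gene, and Igf2bp3 (123), which encodes an RNA-binding protein. The gained peak of 1225 bp between the divergent genes Efnb2 and 4921522P10Rik scored 141, with H3K4me3 scores of 3100 at both stages. 4921522P10Rik was the last of the 15 genes. Without H3K27me3 in nLC, Cep170 scored 118, Ssu72, an RNA polymerase II phosphatase, 124, and Timm10, a mitochondrial import chaperone, 128. Pcgf1, at 119, had H3K27me3 besides H3K4me3 in nLC, with a score of 99.9. Efnb2, Hlx, Igf2bp3, Cep170, Ssu72, Timm10 and Pcgf1 were named after their values were seen. Their EA-HFSC scores lay between 66.2 at Pcgf1 and 610 at Hlx.

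Zinc finger genes made up 7 of the 10 genes with the highest kept scores at the start. The C2H2 zinc finger genes with a KRAB domain encode repressors that bring the H3K9 methylation machinery to transposons. The highest-scoring kept nEA peak, 13104 bp at chr7:13423571-13436674 downstream of the start of Zfp110, scored 1824 in nEA and 833 in nLC, where it was also the highest kept peak. The next ones in nEA lay far from gene starts, at chr12:20232417-20240336 (1814 in nEA and 230 in nLC) and chr12:20247571-20254869 (1743 and 105), with Gm10479 as the nearest gene, and at 79223 bp from the start of Pcdhgc5 (1627 and 106), a protocadherin gene. Zfp850 scored 1618 in nEA and 156 in nLC, Zfp936 1507 and 66.6, Zfp950 1253 and 129, and Zfp930 986 and 96.6. All 4 peaks spanned the gene start and were between 7490 and 12070 bp wide in nEA. None of these 4 genes had H3K4me3 at either stage. The other genes of the 10 were Zfp935 (972 and 64.2) and the unnamed genes AU041133 (1249 and 74.1), Gm3604 (955 and 148) and Gm8290 (941 and 177). Zfp758 and Zfp944, divergent genes with H3K4me3, shared a kept peak of 1215 in nEA and 66.8 in nLC whose middle lay 6788 bp downstream of the start of Zfp758. On the nLC side, kept peaks of high score also lay near developmental genes with H3K27me3, such as Klf14 (441 in nLC and 707 in nEA) and Foxl2 (427 and 223), which encode transcription factors. The remaining kept nLC peaks among the 5 highest lay nearest to Fcgr1 (636 and 492), at a distance of 41943 bp, and to Zfp329 (572 and 1101).

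The highest-scoring lost peaks lay in several settings. The highest, chr17:22275519-22285599, whose nearest start was that of Zfp947, was 10081 bp wide, scored 953 and held 5 linker motifs. Gm6020 on chromosome 19 lost a peak of 948 that spanned its start and held 12 linker motifs, and Zfp934 lost one of 301. The next lost peaks lay near Vmn2r12 (844), a vomeronasal receptor gene, at 105924 bp from the nearest start, that of Ccdc6 (824), and at 63737 bp from Zfp944 (687). The widest, 10394 bp with Gm13145 as the nearest gene by its start, scored 94.8, and one of 7993 bp near 4930522L14Rik scored 507. Gm9805 (600), 6720489N17Rik (509) and Gm13247 (308) were further lost genes. Zfp874b had an nEA score of 832 at its start window and no nLC peak there, and Orc2, a subunit of the origin recognition complex, one of 623 at a peak of 11214 bp. Smap1, a GTPase-activating protein, had 417, Rfc5, a subunit of the clamp loader, 385, and Eef1e1, a factor of the aminoacyl-tRNA synthetase complex, 321. The peaks of Zfp874b, Orc2 and Eef1e1 overlapped nLC peaks farther than 3000 bp from the start, whereas those of Smap1 and Rfc5 had no nLC peak at all. At all 5 genes the peak lay upstream, its middle at -6367 to -3278 bp from the start, and the start itself carried H3K4me3 in nEA and nLC.

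The motif of the zinc finger linker was more frequent under kept peaks than under lost or gained ones. At least 2 copies of ACNGGNGANAANCCNTN, on either strand, lay within 1000 bp around the middle of 2.60% (2.15 to 3.15%) of kept nEA peaks and 3.23% (2.76 to 3.77%) of kept nLC peaks. The share was 0.454% (0.354 to 0.582%) for lost peaks, 0.0746% (0.0405 to 0.137%) for gained peaks and 0.0313% (0.0158 to 0.0617%) for genome tiles of the same length. A match is a description of the letters and no sign of a bound factor. Of 403 genes with zinc finger names, 132 kept a peak in the gene body, 32.8% (28.4 to 37.5%), against 8.52% of all genes.

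Of the 5 windows of 1 Mb with the most lost peaks, 3 were also among the 5 with the most kept peaks. The first for lost peaks, chr13:62000001-63000000 with Zfp808, Zfp934 and Zfp935, held 83 lost and 32 kept peaks, and chr17:22000001-23000000, with 7 zinc finger genes by name, held 66 lost, 37 kept and 26 gained peaks. A window had a median of 5 lost and 5 gained peaks. Gained peaks numbered at most 30 in a window, at chr11:96000001-97000000, which holds the Hoxb cluster. The 23 windows with the most lost peaks held 7.05% of them, and the 22 with the most gained peaks held 3.84%.

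Of the 5 highest-scoring gained peaks, the first shared sequence with 3 others. The first, chr2:98506262-98507622 at Gm10800, scored 3100 and was most like itself when shifted by 234 bp (46.5% identical bases), the shift also found best in the peaks at chr9:35112665-35113699 (38.3%) and chr9:3034489-3038676 (72.9%). The third, at Gm10801, shared 316 of its 20-base words with the first, 35.7% of its own. The fifth, chr12:3109558-3110256, shared 147 with the first, 21.6% of its own. The second, chr17:39979498-39986281, shared none with the first, was 61.1% GC with a CpG ratio of 0.954, and overlaps the pseudogene AY036118. The scores of these 5 peaks were 3100, 2442, 2419, 1704 and 932 in nLC and 977, 1193, 449, 1016 and 755 in EA-HFSCs, while nEA and LC-HFSCs had no peak there. The widest gained peak, 19497 bp at chr9:3013757-3033253 at Gm10718, scored only 43.5. The middle 24 bases of the fifth occurred 48 times on the placed chromosomes and those of the first once. The study counted uniquely mapped reads, and the part of repeated sequence in these scores was not tested.

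Lists of genes with a shared role were then counted at the gene start. Housekeeping lists gained peaks in a larger share than all genes (10.6%). A peak was gained at 12 of 41 proteasome subunit genes, 29.3% (17.6 to 44.5%), among them Psmd6 (score 78.8) and Psmc5 (77.6). It was gained at 18 of 76 mitochondrial ribosomal protein genes, 23.7% (15.5 to 34.4%), at 13 of 58 translation initiation factor genes, 22.4% (13.6 to 34.7%), at 8 of 37 NADH dehydrogenase subunit genes, 21.6% (11.4 to 37.2%), and at 15 of 82 cytosolic ribosomal protein genes, 18.3% (11.4 to 28.0%), with Rps3 highest at 95.5. Of 422 genes that the study listed as constantly expressed in its arrays, beside the marks of the same ChIP samples, 81 gained a peak, 19.2% (15.7 to 23.2%). That list is therefore no independent evidence. Between 92.7% and 100% of the members of these lists had H3K4me3 in nLC, so the share to hold beside them is also the 15.7% of genes with H3K4me3 alone. That share lay below the interval of the proteasome list, at the lower edge of that of the constantly expressed list, and inside the intervals of the others.

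Hox genes combined gained and kept peaks. Of 40 genes, 11 gained a peak, 27.5% (16.1 to 42.8%), beside 10.6% of all genes and 15.2% of those with H3K27me3 alone. A peak was kept at 3 (Hoxd3, Hoxd4 and Hoxd9), 7.5% (2.58 to 19.9%). That interval lies above the 1.09% of all genes and holds the 3.70% of those with H3K27me3 alone. Hox genes lost a peak at 0 of 40, with an upper bound of 8.76% that holds the 1.71% of all genes. Hoxd13 scored 96.4, Hoxd1 72.1 and Hoxa13 54. Cell cycle genes gained a peak at 7 of 39, 17.9% (8.98 to 32.7%), with Cdk6 at 106, Mcm5 at 82.7 and Ccna2 at 71.2, and Rbl1 lost one. Both this interval and the interval of imprinted genes that gained a peak hold the 10.6% of all genes and the 15.7% of genes with H3K4me3 alone. Imprinted genes gained a peak at 6 of 29, 20.7% (9.85 to 38.4%), lost one at 3 (Peg3, and Peg10 with Sgce, which shared a peak at the lowest scores) and kept one at Igf2r, with 243 in nEA and 134 in nLC, and at Impact. Replication-dependent histone genes gained a peak at 5 of 67, 7.46% (3.23 to 16.3%), an interval that holds the 10.6% of all genes, and 62 of them had H3K4me3 in nLC.

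Genes of the epidermis itself were counted in 3 lists. None of 92 keratin and keratin-associated protein genes gained a peak, with a Wilson upper bound of 4.01%, and only Krtap12-1 lost one, of 59.6. Of the 92, 12 had H3K4me3 in nLC, and the interval holds the 2.09% gained among genes with neither mark. None of 26 epidermal differentiation genes gained or lost a peak at the start, with an upper bound of 12.9% that still holds the 10.6% of all genes. Only 7 of the 26 had H3K4me3 in nLC, and of genes with neither mark 2.09% gained a peak. Of 15 basal keratinocyte and hemidesmosome genes, Cd151 (54.6) and Dst (43.4) gained one, 13.3% (3.74 to 37.9%). Receptor genes of the olfactory system, silent in skin, gained a peak at 12 of 1087, 1.10% (0.633 to 1.92%), and vomeronasal receptor genes at 3 of 320, 0.938% (0.319 to 2.72%). H3K4me3 in nLC lay at 4 of the olfactory and 0 of the vomeronasal genes. The olfactory interval lay below the 2.09% of genes with neither mark, and the vomeronasal interval holds it. Clustered protocadherin genes, which encode neuronal adhesion proteins, gained a peak at 0 of 24, with an upper bound of 13.8% that holds the 10.6% of all genes. They kept one at 4 and lost one at 7, beside 1.09% kept and 1.71% lost of all genes. Pcdhb22 was highest among the kept, at 312 in nEA and 93.8 in nLC. Zinc finger genes by name gained a peak at 55 of 403, 13.6% (10.6 to 17.3%). The 10.6% of all genes lay at the lower edge of that interval. H3K4me3 in nLC lay at 320 of the 403, and the 15.7% gained among genes with H3K4me3 alone lay inside the interval. Zinc finger genes lost a peak at 24, 5.96%, and kept one at 33, 8.19%, beside the same 1.71% and 1.09% of all genes.

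**Figure D5:**
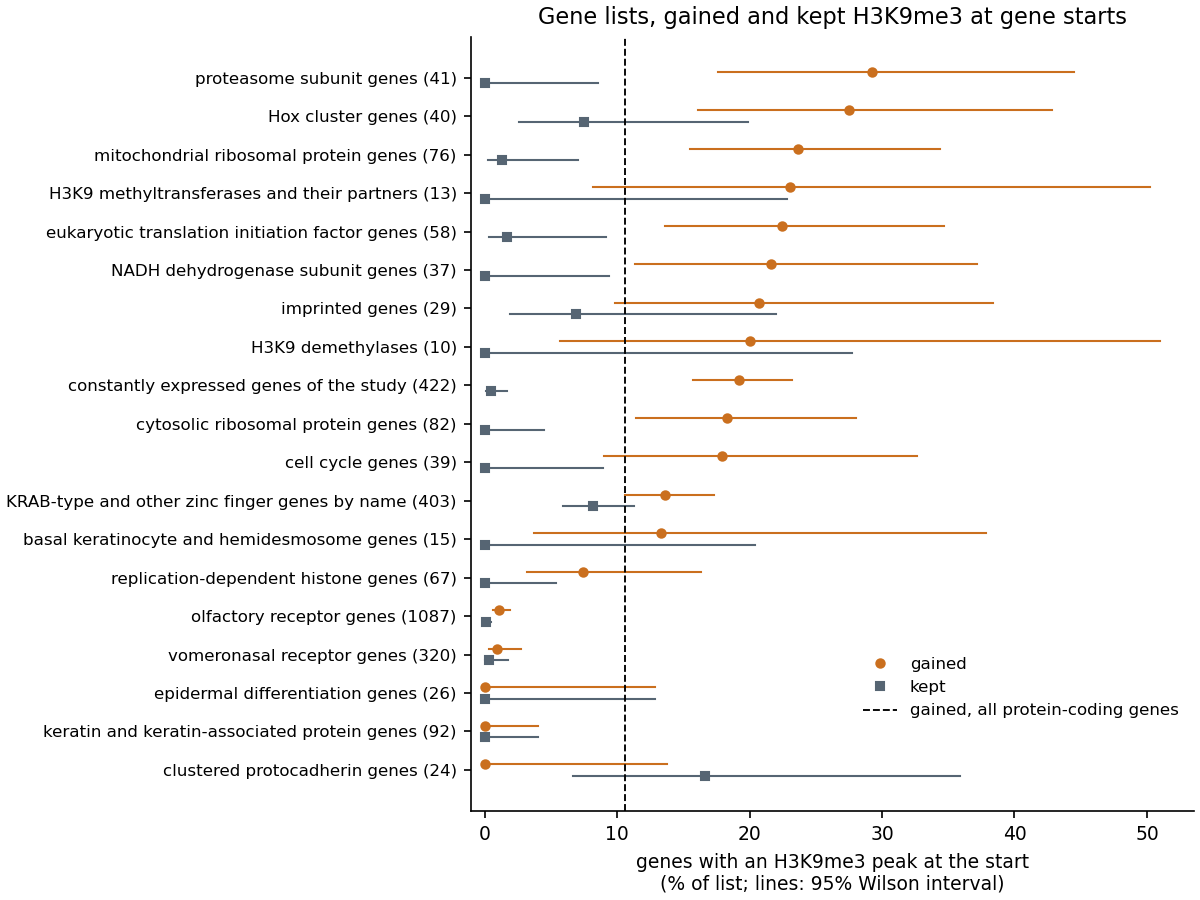
Percent of the genes of each list (x axis) that gained or kept an H3K9me3 peak within 3000 bp of the start, with 95% Wilson intervals as lines, the number of genes in parentheses and the gained share of all protein-coding genes (10.6%) as a dashed line. Proteasome subunit genes lie highest for gained peaks at 29.3%, and clustered protocadherin genes highest for kept peaks.

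Genes that encode the H3K9 enzymes were looked up one by one. The lists hold enzymes of H3K9 methylation in general and not of the trimethyl mark only. Among methyltransferase genes and their partners, Ehmt1 (score 66.9), which encodes GLP, Ehmt2 (41.4), which encodes G9a, and Suv39h2 (41.2) gained a peak, and Atf7ip, a partner of Setdb1, lost one at the lowest scores. Suv39h1, Setdb1, Setdb2, Prdm2, Trim28 and the HP1 genes Cbx1, Cbx3 and Cbx5 had no peak at the start at either stage. Among demethylase genes, Kdm4a (73.1) and Kdm4d (64.7) gained a peak, and Kdm1a, Kdm3a, Kdm3b, Kdm4b, Kdm4c, Jmjd1c and Phf8 had none at the start. All 5 genes that gained one had H3K4me3 at both stages and H3K9me3 in EA-HFSCs. Neither mark was particular to them. H3K4me3 in nLC lay at 12 of 13 gene models of the methyltransferase list and 9 of 10 of the demethylase list. H3K9me3 in EA-HFSCs lay at 10 of 13 and 7 of 10. A peak was gained at 3 of 13 and 2 of 10 gene models, in which Atf7ip and Jmjd1c are each annotated as a pair of genes. The intervals of 8.18 to 50.3% and 5.67 to 51.0% both hold the 10.6% of all genes.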

How the data were processed

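H3K9me3 ChIP-seq peak lists of nEA and nLC cells were compared. The authors trimmed single-end reads with Trimmomatic 0.22, aligned them to mm9 with Bowtie2, kept uniquely mapped reads, pooled replicates and called peaks with MACS against IgG of the same population. The deposited score of a peak is the authors' value, the negative log10 of the MACS p-value times 10. The authors state that their depth did not saturate H3K9me3 peak detection, and read numbers were not used here. Differences in depth, background or ChIP efficiency between the libraries can move peaks across a fixed threshold, and the lists cannot correct for this.

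Python 3.11.15 with numpy 2.4.6, scipy 1.17.1 and, for figures, matplotlib 3.10.9 gave overlaps, distances, motifs and base composition, tested on simulated peaks and against bedtools 2.31.1. Genes were the 22367 protein-coding genes of GENCODE vM1 on NCBIM37, the assembly of mm9. The 297 nEA and 94 nLC peaks on unplaced sequence entered peak counts and overlaps only. Genome tiles were 1000 bp long, 1 every 100 kb, without gaps. The other 10 lists served to annotate the peaks.

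Genes were named by a rule: the 5 highest-scoring peaks of each class and the 3 widest gained and lost, the 15 genes with the highest gained peak, the 10 highest lost and the 10 highest kept within 3000 bp of the start, up to 4 members of each list, and all H3K9 enzymes. The peak classes, gene lists and rule were chosen with earlier results of these data known. The alternatives were scores of 50 and 100, the 19 autosomes, merging of peaks under 1 kb apart, other overlaps, the 2000 highest peaks of each list, other windows and any transcript start.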

Additional observations from a re-analysis of the deposited data

Results flagged for a closer look

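The number of genes with an H3K9me3 peak within 3000 bp of the start moved in opposite directions in the sorted populations. It went from 626 in nEA to 2605 in nLC among non-HFSCs, and from 10120 in EA-HFSCs to 66 in LC-HFSCs. With 1 pooled list for each population the difference between these directions was not tested. In the non-HFSCs the direction turned when only peaks with a score of 100 or more were counted, with 196 genes in nEA and 120 in nLC.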

How the results depend on the processing

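Of 106 values of 13 results under the alternatives, 50 stayed within the counting interval of the reported value, or within 1.5 times for gene counts, and 56 moved. The ratio of nLC to nEA peaks was 0.702 when a score of 50 or more was required, 0.195 for 100 or more, and 1.07 with peaks under 1 kb apart merged. The ratio of covered length was 0.327, 0.104 and, with the 2000 highest peaks of each list, 0.328. The kept share of nEA peaks was 18% and 9.36% with the score thresholds, 22.9% with merging, 8.95% when 50% of a peak had to be covered, 27.2% and 36.9% when an nLC peak within 1 kb or 5 kb counted, and 24.45% with the 2000 highest peaks. The gained share of nLC peaks was 69.9%, 46.9%, 76.0%, 75.7%, 69.8%, 63.1% and 70.05% in the same order. The share of gained peaks within the window of the gene start was 17.4% and 17.5% with the score thresholds, 17.3% with the 5 kb rule, 18.3% with any transcript start, and 11.2% and 15.1% in windows of 1000 and 2500 bp. It exceeded that of lost peaks in every setting, where lost peaks ranged from 0.520% to 3.35%. Genes with a peak at the start numbered 196 in nEA and 120 in nLC for scores of 100 or more, 116 and 308 with the 2000 highest peaks, 1359 in nLC for scores of 50 or more, and 212 in nEA in the 1000-bp window. Promoters drawn from annotated gene starts only, an alternative added after the data were seen, held 5.09% of gained peaks. No paired analysis was possible because each side is 1 list of pooled reads. The depth of the libraries is not known from the lists, and a fixed score threshold does not remove a difference in depth.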

Other observations

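The middle 24 bases of each peak were looked up in the placed chromosomes on both strands. They occurred once for 95.5% (94.6 to 96.3%) of the gained peaks within 3000 bp of a gene start, 83.1% (82.4 to 83.8%) of the other gained peaks, 68.1% (67.3 to 68.9%) of lost peaks and 69.7% (68.3 to 71.1%) of kept nEA peaks, against 79.4% (78.9 to 79.9%) of genome tiles. More than 10 copies were found for 17.7% (17.1 to 18.3%) of lost and 8.31% (7.85 to 8.79%) of gained peaks.

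By chromosome, the ratio of nLC to nEA peaks on the autosomes ranged from 0.849 on chromosome 3 to 1.4 on chromosome 19, with 1.34 on chromosome 11. Chromosome X held 88 nEA and 87 nLC peaks. The gained share of nLC peaks was lowest on chromosomes 17 (61.8%) and 13 (63.1%), which hold the zinc finger clusters with the most lost peaks. Among the 6 bulge markers, Sox9, named after its values were seen, gained an H3K9me3 peak at its start. It carried H3K4me3 there in nEA and nLC. Cd34, Krt15, Lgr5, Lhx2 and Nfatc1 had no H3K9me3 peak at the start at either stage. A peak was gained at 10.6% of all genes and at 15.7% of those with H3K4me3 alone in nLC.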
